A study of Mus musculus with 4 samples.

Results

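The mRNAs described here encode HECT-domain ubiquitin ligases, taken as Nedd4, Nedd4l, Itch, Smurf1, Smurf2, Wwp1, Wwp2, Huwe1 and Ube3a. They were found by name, as array probes that are no controls and whose annotated gene is one of these 9. The 9 genes, of 34964 named on the array, have 14 of its 55681 probes, with 3 for Smurf2, 2 each for Nedd4l, Wwp1 and Ube3a, and 1 each for the other genes. All 14 passed the filter on dim probes, and 13 were well above background on all 4 arrays.

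RNA was recovered by immunoprecipitation from lysate of cortex and hippocampus of male C57BL/6 mice aged 8 weeks, an inbred laboratory strain with no transgene or treatment named in the labels. One group of 2 arrays holds RNA that came down with an antibody against CPEB3 (CPEB3 IgG), and the other group of 2 arrays holds RNA that came down with a control antibody (control IgG). Each incubation with antibody-coated beads lasted 3 h, and both groups share tissue, strain, sex and age. CPEB3, cytoplasmic polyadenylation element binding protein 3, is an RNA-binding protein of neurons, and the comparison asks which of the ligase mRNAs were more abundant in its precipitate than in the control precipitate.

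Ubiquitin is passed from an activating enzyme (E1) to a conjugating enzyme (E2) and then to a substrate with the help of a ligase (E3). A HECT-domain ligase first takes ubiquitin onto a cysteine of its own catalytic domain, whereas RING-type ligases hand it over directly from the E2. Ligases of the NEDD4 family, here Nedd4, Nedd4l, Itch, Smurf1, Smurf2, Wwp1 and Wwp2, carry WW domains that bind proline-rich motifs of substrates and adaptors, and in neurons this family and Ube3a are known for controlling membrane proteins and synapses.

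Each probe is a 60-base oligonucleotide, and a value reports only the stretch of mRNA that it matches. Stretches of 8 of the probes, both called and not called, are shown 5′ to 3′ as deposited. The polyadenylation signal AATAAA or the cytoplasmic polyadenylation element TTTTAT is in capitals where it occurs. The Smurf1 and Wwp1 probes are given whole, since the ends of each lie farther apart in the genome than the probe is long (1228 and 4470 bases), so that they cross at least 1 exon junction.
Huwe1, transcript bases 14062 to 14091: gtggaggtttcaAATAAAgagcactcttca
Wwp2, transcript bases 2856 to 2885: gatgatggcagtctggAATAAAgcactgtc
Smurf2, transcript bases 3563 to 3592: ggtcagcttgtcTTTTATatgctatttcta
Smurf2, transcript bases 4479 to 4508: acatcaaaaacatggtttagatttcgattt
Itch, transcript bases 5303 to 5332: gtaagcatcgtaaatgctaatcaacctgtt
Nedd4, transcript bases 5174 to 5203: cttgtacttctctagaaaagtgttttagcc
Smurf1, transcript bases 2318 to 2377: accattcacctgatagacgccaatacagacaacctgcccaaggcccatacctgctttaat
Wwp1, transcript bases 2506 to 2565: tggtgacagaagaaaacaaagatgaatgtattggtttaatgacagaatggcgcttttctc

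A level below is the log2 signal of a probe relative to the 75th percentile of its array, a difference is CPEB3 IgG minus control IgG on that scale, and a probe was called at an adjusted p under 0.05 (limma, Benjamini-Hochberg over 40616 probes). Of the 14 probes, 6 were called higher, 1 lower and 7 neither. Among all tested probes 15.8% were called higher and 18.9% lower. The median difference was 0.76 over the 14 probes and −0.19 over all tested probes. By gene, Nedd4l, Itch, Smurf2 and Huwe1 had a probe called higher, Wwp2 had its probe called lower, and Nedd4, Smurf1, Wwp1 and Ube3a had none called. Both CPEB3 IgG arrays lay above both control IgG arrays for 9 of the 14 probes and below them for 2, against 28.6% and 42.7% of all probes.

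**Figure D1:**
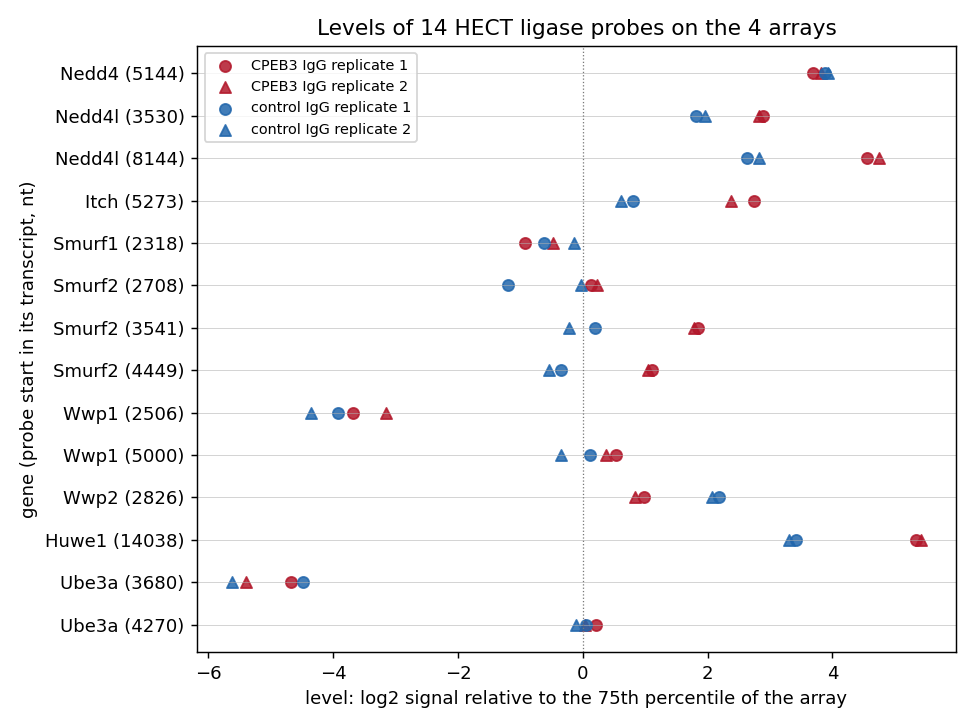
Level of each of the 14 probes (log2 signal relative to the 75th percentile of the array, x axis) on the 4 arrays, with red for CPEB3 IgG, blue for control IgG, circles for replicate 1 and triangles for replicate 2. The red points of Huwe1 lie at 5.34 and 5.42 and its blue points at 3.42 and 3.30, while those of Ube3a are mixed at both of its probes.

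All 29 brain markers examined (neurons, excitatory and inhibitory subtypes, astrocytes, oligodendrocytes, microglia and endothelium) were well above background on all 4 arrays, with control levels of 5.55 to 6.79 for 5 general neuronal genes and of −2.44 to 6.49 for the others. Of 4 genes typical of other tissues, Ins2 (−0.08), Krt5 (−1.19) and Myh6 (−2.46) were well above background on all 4 arrays too, and Alb did not pass the filter. Of the 29 brain markers, 2 were called higher and 6 lower, against 19.2% and 20.2% of 27687 genes. The largest marker differences were those of 2 astrocyte genes that went opposite ways, Slc1a3 at 3.16 and Aldh1l1 at −3.03. The other astrocyte genes, Gfap (−0.80) and Aqp4 (0.57), were not called. A marker's difference compares the RNA recovered with the 2 antibodies. The lysate mixes all these cell types, so the cell type that a recovered mRNA came from cannot be told. Before scaling, the signal at the 75th percentile stood at 507 and 353 units on the CPEB3 IgG arrays against 443 and 425 on the control arrays, and the mean log2 signal of spiked-in RNA was 13.11 and 13.43 against 13.97 and 13.95. All arrays came from 1 scan. The first number of the slide position, read from the names of the deposited array data, was 2 for both CPEB3 IgG arrays and 1 for both control IgG arrays. An effect of position therefore cannot be told apart from an effect of the antibody.

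At the later of its 2 probes Nedd4l mRNA was 3.77-fold higher with CPEB3 IgG (95% interval 2.70 to 5.27). Nedd4l encodes NEDD4-2, a ligase known for removing the epithelial sodium channel and voltage-gated sodium channels from the cell surface. The levels at this probe, which starts at base 8144 of the transcript, were 4.55 and 4.75 with CPEB3 IgG, against 2.64 and 2.83 with control IgG, and the groups were apart by far more than the replicates. The difference was 1.92 ± 0.18 (SE, n = 2 per group, limma adjusted p = 0.00569). Both probes lie on chromosome 18 in mm9, the later from 65377413 to 65377472 and the earlier from 65372799 to 65372858.

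At the earlier Nedd4l probe, which starts at base 3530, the levels were 2.89 and 2.83 with CPEB3 IgG, against 1.82 and 1.96 with control IgG. These groups also did not overlap, and the difference was 0.97 ± 0.16 (SE, n = 2 per group, limma adjusted p = 0.0162). The call was lost without scaling (0.93, adjusted p = 0.135) and without CPEB3 IgG replicate 1 (0.94, adjusted p = 0.0823), CPEB3 IgG replicate 2 (1.00, adjusted p = 0.0697) or control IgG replicate 1 (0.90, adjusted p = 0.0669).

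Nedd4 itself, the founding member of the family and a ligase known for ubiquitylating AMPA-type glutamate receptors, was not called. Its levels were 3.68 and 3.81 on the CPEB3 IgG arrays and 3.89 and 3.93 on the control arrays. Both CPEB3 IgG values were below both control values, but the CPEB3 IgG replicates differed from each other by 0.13, nearly as much as the groups. The difference was −0.16 (95% interval −0.59 to 0.27, limma adjusted p = 0.471), so a rise of the size seen for Nedd4l lies outside the interval. The sign turned with median (0.13) and spike-in scaling (0.49), and the probe was not called under either. In mm9 it occupies 72597306 to 72597365 of chromosome 9.

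Itch mRNA was 3.61-fold higher with CPEB3 IgG (95% interval 2.45 to 5.31). Itch encodes a ligase known for degrading the transcription factors Jun and JunB in T cells. Its levels were 2.74 and 2.38 with CPEB3 IgG, against 0.81 and 0.61 with control IgG, with a clear gap between the groups. The difference was 1.85 ± 0.21 (SE, n = 2 per group, limma adjusted p = 0.00727). The only Itch probe starts at base 5273 of the transcript, on chromosome 2 from 155052476 to 155052535.

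Wwp2 ran the other way and was 2.34-fold lower with CPEB3 IgG (95% interval 1.72 to 3.18). Wwp2 encodes a ligase known for acting on the transcription factor OCT4. The levels were 0.98 and 0.84 with CPEB3 IgG, against 2.19 and 2.08 with control IgG, and replicates within a group lay close together. The difference was −1.22 ± 0.17 (SE, n = 2 per group, limma adjusted p = 0.0102) at a probe on chromosome 8 from 110081041 to 110081100. The call was lost without CPEB3 IgG replicate 1 (−1.30, adjusted p = 0.0541), without CPEB3 IgG replicate 2 (−1.15, adjusted p = 0.0563) and with spike-in scaling (−0.57, adjusted p = 0.549), which moved the median of all probes from −0.19 to 0.46.

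Wwp1, a ligase known for acting on the transcription factor KLF5, was not called at either of its probes, although both CPEB3 IgG values lay above both control values at each. At the brighter probe, which starts at base 5000 (chromosome 4, 19536837 to 19536896), the levels were 0.53 and 0.38 with CPEB3 IgG, against 0.12 and −0.35 with control IgG. The difference there was 0.57 (95% interval −0.04 to 1.18, limma adjusted p = 0.124). The probe that starts at base 2506 (19550344 to 19554813) was dim, at percentile 7.2 of the control levels of all probes tested, with levels of −3.68 and −3.16 against −3.92 and −4.35 and signals of 20.8 to 39.6 units on the 4 arrays. Its difference was 0.72 (95% interval −0.02 to 1.46, limma adjusted p = 0.114), and it was called with quantile (1.08, adjusted p = 0.0475), median (1.01, adjusted p = 0.0498) or cyclic loess scaling (1.09, adjusted p = 0.0419).

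Smurf2 mRNA was 3.54-fold higher at its middle and brightest probe (95% interval 2.41 to 5.21). SMURF2 and its paralog SMURF1 are known for ubiquitylating SMAD proteins and receptors of the TGF-β pathway, and SMURF1 also for acting on the small GTPase RhoA. The levels of the probe at base 3541 were 1.84 and 1.78 with CPEB3 IgG, against 0.19 and −0.22 with control IgG. The difference was 1.82 ± 0.21 (SE, n = 2 per group, limma adjusted p = 0.00742), and the call was lost without CPEB3 IgG replicate 1 (1.79, adjusted p = 0.0519). All Smurf2 probes lie on chromosome 11, this one from 106683108 to 106683167.

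The last Smurf2 probe, at base 4449 (106682200 to 106682259), was higher as well. Its levels were 1.11 and 1.05 with CPEB3 IgG against −0.35 and −0.54 with control IgG, with a difference of 1.53 ± 0.17 (SE, n = 2 per group, limma adjusted p = 0.00693). At the first probe, at base 2708 (106683941 to 106684000), the CPEB3 IgG values were 0.14 and 0.23 and the control values −1.20 and −0.02. The control replicates were thus farther apart than the groups, and the difference of 0.80 was not called (95% interval −0.35 to 1.94, adjusted p = 0.216). Without control IgG replicate 2 it was called (1.39, adjusted p = 0.0252), and without control IgG replicate 1 it was 0.21 (adjusted p = 0.571).

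Smurf1 was not called, and its groups overlapped. The levels were −0.92 and −0.48 with CPEB3 IgG, against −0.62 and −0.14 with control IgG, on chromosome 5 from 145640319 to 145641546. The difference was −0.32 (95% interval −1.04 to 0.40, limma adjusted p = 0.402), and its sign turned with spike-in scaling (0.34).

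Huwe1 mRNA had the largest difference of the 14 probes and was 4.06-fold higher with CPEB3 IgG (95% interval 3.01 to 5.47). HUWE1 is a very large ligase known for acting on the survival protein MCL1, on p53 and on MYC proteins. The levels were 5.34 and 5.42 with CPEB3 IgG, against 3.42 and 3.30 with control IgG, and the replicates differed by 0.08 and 0.12. The difference was 2.02 ± 0.16 (SE, n = 2 per group, limma adjusted p = 0.00527), at rank 1195 from the top of 40616 probes. Its only probe starts at base 14038 of the transcript, on chromosome X from 148369375 to 148369434.

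Ube3a, the ligase whose maternal copy is lost in Angelman syndrome and which is imprinted in neurons, was not called at either probe. At the probe that starts at base 4270 (chromosome 7, 66561271 to 66561330), the levels were 0.22 and 0.04 with CPEB3 IgG, against 0.06 and −0.10 with control IgG. The groups overlapped, and the difference was 0.15 (95% interval −0.31 to 0.61, limma adjusted p = 0.535). The other probe, annotated on another transcript record (start 3680, 66544981 to 66545040), was well above background only on replicate 1 of each group, with levels of −4.68 and −5.39 against −4.48 and −5.62, and its difference was 0.01 (95% interval −1.28 to 1.31).

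**Figure D2:**
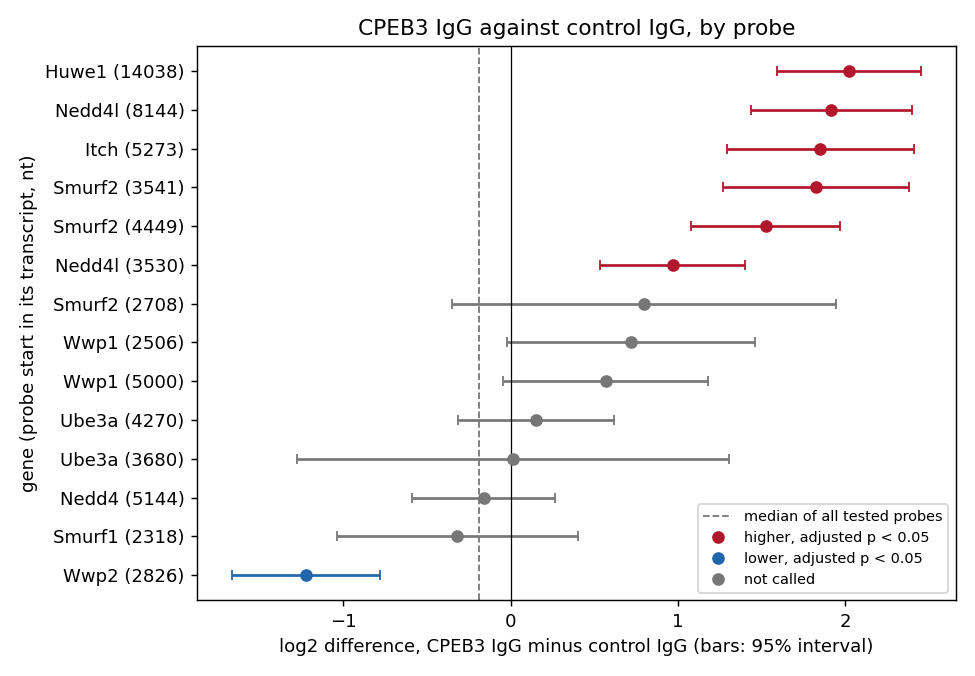
Log2 difference of each probe, CPEB3 IgG minus control IgG, with its 95% interval (x axis), ordered by size, with red for probes called higher, blue for lower and grey for neither. The dashed line marks the median of all tested probes at −0.19. The 4 largest differences, from 1.82 to 2.02, belong to Huwe1, Nedd4l, Itch and Smurf2, and Wwp2 stands alone at −1.22.

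Paralogs within the NEDD4 family were compared directly, as the difference between 2 genes' values on the same array, in 1 limma fit with all pairs of probes of the same gene on the array. These 3 pairs of paralogs were chosen after their values were seen. Where a gene has several probes, only the brightest entered. In all 3 pairs the gene with the larger difference had the later probe start. The starts were 8144 for Nedd4l and 5144 for Nedd4, 3541 for Smurf2 and 2318 for Smurf1, and 5000 for Wwp1 and 2826 for Wwp2. At the first probe the difference was 0.97 for Nedd4l, and 0.80 for Smurf2 and 0.72 for Wwp1, both not called. Whether probe position adds to the gaps between paralogs was not tested. The CPEB3 IgG difference was larger for Nedd4l than for Nedd4 by 2.08 (95% interval 1.61 to 2.54, adjusted p = 0.0094). For Smurf2 over Smurf1 it was larger by 2.14 (1.06 to 3.23, adjusted p = 0.0251). Wwp2 lay below Wwp1 by −1.79 (−2.35 to −1.23, adjusted p = 0.0114). Without CPEB3 IgG replicate 1 none of the 3 passed (2.11, 1.89 and −1.79, with adjusted p = 0.0651, 0.114 and 0.0693). Without CPEB3 IgG replicate 2 Smurf2 over Smurf1 (adjusted p = 0.0685) and Wwp2 below Wwp1 (−1.79, adjusted p = 0.0520) did not pass, and without control IgG replicate 2 Smurf2 over Smurf1 did not (1.70, adjusted p = 0.0506).

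Probes of the same gene were compared in the same way, the one with the later annotated start minus the other. Pairs on the same transcript record or the same chromosome entered. Starts of some pairs, as for Ube3a, can therefore refer to different records, and how many do was not counted. The pairs compared came from 5552 genes. Among 8559 such pairs on the array, the CPEB3 IgG difference was larger at the later probe in 27.5% and smaller in 4.79% (limma, adjusted p under 0.05), with a median of 0.42. The counts, 2355 and 410, depend on each array: they were 0 and 0 without CPEB3 IgG replicate 1 (2402 and 545 at an unadjusted p under 0.05), 1035 and 108 without CPEB3 IgG replicate 2, 1037 and 147 without control IgG replicate 1, and 1358 and 251 without control IgG replicate 2. Of the 6 pairs among these ligases, 1 was called. The later Nedd4l probe, 4614 bases downstream of the earlier, had the larger difference by 0.95 ± 0.18 (SE, adjusted p = 0.0279), with values of 1.66 and 1.92 on the CPEB3 IgG arrays and 0.82 and 0.87 on the control IgG arrays. This call was lost without any one of the 4 arrays (0.82 to 1.08).

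The pairs of the other genes were not called. From the first Smurf2 probe to the middle one the difference grew by 1.03 (95% interval −0.58 to 2.64, called without control IgG replicate 1 at 1.82, adjusted p = 0.0414), and from the first to the last by 0.73 (−0.67 to 2.13). Between the middle and the last Smurf2 probe it changed by −0.30 (−0.79 to 0.19). For Wwp1 the change over 2494 bases was −0.15 (−0.94 to 0.64), and it ran from −0.56 to 0.31 over the alternatives. For Ube3a it was 0.14 (−1.04 to 1.32), between probes on different transcript records.

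**Figure D3:**
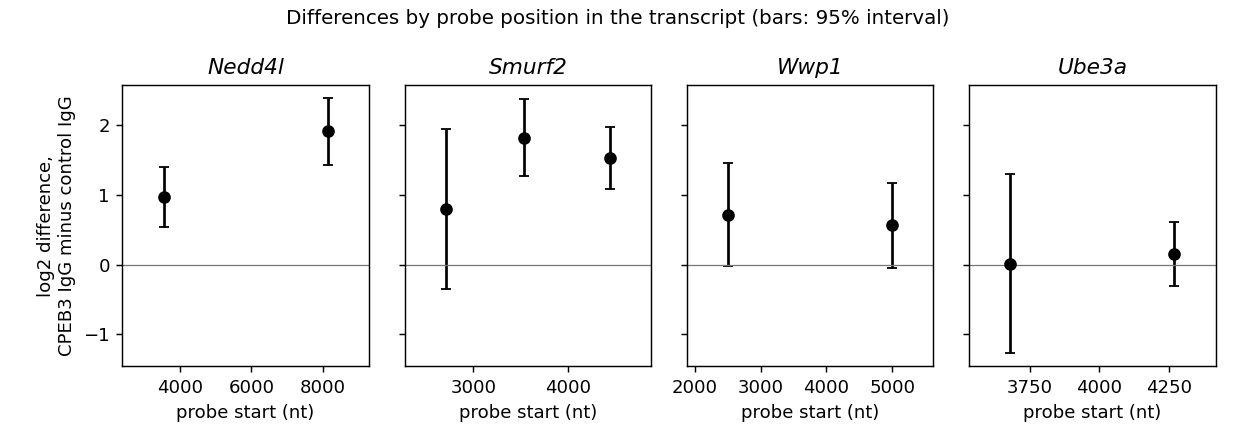
Log2 difference, CPEB3 IgG minus control IgG, with its 95% interval (y axis) against the start of the probe in its transcript (x axis, nt) for the 4 genes with more than 1 probe. Nedd4l is at 0.97 and 1.92, Smurf2 at 0.80, 1.82 and 1.53, Wwp1 at 0.72 and 0.57, and Ube3a at 0.01 and 0.15, where the Ube3a starts refer to different transcript records.

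The probe sequences were searched for AATAAA, the signal at which most mRNAs are cleaved and polyadenylated, and for TTTTAT and also for TTTTAAT, forms of the cytoplasmic polyadenylation element that is known to be bound by CPEB1, on both strands. The reverse complement of TTTTAT overlaps in its letters with AATAAA. The polyadenylation signal stood in 4 of the 14 probes, those of Huwe1, Wwp2 and both of Nedd4l, against 10.06% of all probes, and on the other strand in 1, the first Smurf2 probe (3.74% of all). Of these 4 probes with AATAAA on the mRNA strand, 3 were called higher and 1 lower, and of the other 10, 3 were called higher and 0 lower. Among all tested probes with AATAAA 21.3% were called higher and 17.6% lower, and among those without it 15.1% and 19.1%.

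TTTTAT stood in 1 of the 14 probes, the middle Smurf2 probe shown above, against 3.69% of all probes, and TTTTAAT in 0 (0.91% of all). On the other strand both stood in 0, against 5.24% and 1.34% of all. The middle Smurf2 probe was called higher, and so were 35.5% of the 1508 tested probes with TTTTAT and 15.1% of those without it, while 10.6% and 19.2% were called lower. The last Smurf2 probe and the Itch probe hold none of the 3 motifs and were called higher too. These counts describe 60-base windows only.

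Other mRNAs of HECT-domain ligases, a list of 18 genes each represented by its brightest probe, were higher for 9 and lower for 1. The 1 is Herc6, which the filter on all 4 arrays removes, leaving 0 called lower by limma. The 9 became 5 without scaling and without CPEB3 IgG replicate 1. Among all 27687 genes tested in this way 19.2% were called higher and 20.2% lower. The median difference of the list was 0.85, and it was −0.14 over all genes. On the same scale 4 of the 9 genes described above were called higher and 1 lower. Herc4, a HERC-family ligase with a repeat domain related to RCC1, was 8.66-fold higher, with levels of 4.59 and 4.30 against 1.32 and 1.35 and a difference of 3.11 ± 0.18 (SE, n = 2 per group, limma adjusted p = 0.00386). Hace1, a ligase for the small GTPase RAC1, was 6.52-fold higher (2.71 ± 0.15, SE). Hectd2 (2.13 ± 0.19) and Arel1, a ligase known for opposing apoptosis (2.08 ± 0.15), followed. For Hace1 a probe 1089 bases upstream gave 0.14 and was not called (adjusted p = 0.569), and the difference between its probes was itself called (2.56, adjusted p = 0.00943). The counts of the list depend on the probe taken. Herc1 was higher at base 15169 (1.05) and not called at base 846 (−0.65), and the gap was called (1.70, limma adjusted p = 0.0115). G2e3 was not called at its brightest probe (0.49) but was higher at bases 3261 (2.30) and 4731 (1.29). Herc1 and G2e3 were named after their values were seen.

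Herc6, a HERC-family gene known as interferon-induced, was well above background on both control arrays and on neither CPEB3 IgG array. It passed the filter on dim probes through the control arrays alone, so its lower value is given as a description: at least 2.68-fold lower with CPEB3 IgG, with measured means of −5.94 and −3.90. The fitted difference was −0.34 with normexp background correction and −1.38 with spike-in scaling, and it was called with neither. Herc2 and Hecw1 were not called at −2.55 (adjusted p = 0.198) and −1.01 (adjusted p = 0.352), with control levels of 8.24 and 4.72 for Herc2 and of 6.09 and 3.88 for Hecw1, the widest gaps between control replicates in the list, and both values depend on those arrays (Herc2 −4.31 to −0.79 and Hecw1 −2.12 to 0.10 over the alternatives). Without control IgG replicate 2 both were called lower (adjusted p = 0.0141 and 0.00972), and Herc2 was also called without scaling (adjusted p = 9.7e-07) and with spike-in scaling (adjusted p = 0.00681). Hecw2, a NEDD4-family ligase, was higher at its probes at bases 6676 (2.01) and 10703 (1.43) and not called at base 1052 (−0.38, adjusted p = 0.257). Herc2, Hecw1 and Hecw2 were named after their values were seen.

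Adaptors of the NEDD4 family, which bring substrates to the ligases or activate them, were higher for 5 and lower for 0 of 8 genes at their brightest probes, against 19.2% and 20.2% of all genes. They include the arrestin-domain genes Arrdc4 (8.74-fold, difference 3.13 ± 0.27, SE), Arrdc3 (4.51-fold, 2.17 ± 0.17) and Arrdc1 (1.85 ± 0.17). Smad6 (5.50-fold, 2.46 ± 0.23) and Smad7 (1.97 ± 0.23), inhibitory SMADs of which SMAD7 is known to recruit SMURF2 to the TGF-β receptor, rose as well. At the other Arrdc1 probe, at base 475, the difference was −0.22 and not called (adjusted p = 0.578), and the gap between the Arrdc1 probes was called (2.06, adjusted p = 0.0165). Arrdc1 and Smad7 were named after their values were seen. Levels of Arrdc4 were 0.53 and 1.18 with CPEB3 IgG, against −2.35 and −2.19 with control IgG. At a probe 2798 bases upstream Arrdc4 was called lower (−1.06, adjusted p = 0.0167), and the gap between its 2 probes was 4.19 (adjusted p = 0.00943). Ndfip1 (−0.21), Ndfip2 (0.49) and Arrdc2 (0.48), given to complete the group, were not called at their brightest probes. An earlier Ndfip1 probe, at base 876, was called lower (−1.21, adjusted p = 0.0121), and the gap between the Ndfip1 probes was called as well (1.00, adjusted p = 0.0334).

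The 2 ubiquitin-activating enzymes went opposite ways at their brightest probes. Uba1, the main E1 of the cell, was 4.16-fold lower, with levels of 4.10 and 4.11 with CPEB3 IgG, against 6.07 and 6.25 with control IgG (difference −2.06 ± 0.16, SE, n = 2 per group, limma adjusted p = 0.00386). The call of Uba1 at this probe, at base 3478, was lost with spike-in scaling (−1.40, adjusted p = 0.0612). At the other Uba1 probe, at base 3889, the difference was smaller and also called lower (−1.05, adjusted p = 0.0246). The gap between the Uba1 probes was called (1.01, adjusted p = 0.0362). Uba6 was higher by 1.13 ± 0.19 at base 4788 and lower by −1.32 ± 0.19 at base 2758, a gap of 2.45 between its probes (adjusted p = 0.00943). The call at base 4788 was lost without CPEB3 IgG replicate 1 (0.95) and without scaling (1.09).

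Of 8 conjugating enzymes known to work with HECT ligases, 2 were higher, 0 lower and 6 neither at their brightest probes, a share of higher calls near the 19.2% of all genes (20.2% were lower). Probes nearer the 5′ end were called lower for Ube2d2a (base 767, −0.73, adjusted p = 0.0344) and Ube2d3 (base 526, −0.69, adjusted p = 0.0341). Ube2d1 was 4.05-fold higher (2.02 ± 0.25, SE, adjusted p = 0.00707), and Ube2e2 was called at 0.65 ± 0.16 (adjusted p = 0.0364), a call that was lost in 8 of 14 alternative settings. Ube2e2, Uba6 and Ube2l3 were also named after their values were seen. The brightest probe of Ube2l3, the E2 best known as a partner of HECT ligases, lay at −0.53 and was not called (adjusted p = 0.0534), while its 3 probes nearer the 5′ end were called lower, at −1.24, −1.11 and −0.79. The brightest probe of Ube2d2a was nearest to 0, at 0.02 (95% interval −0.47 to 0.51).

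**Figure D4:**
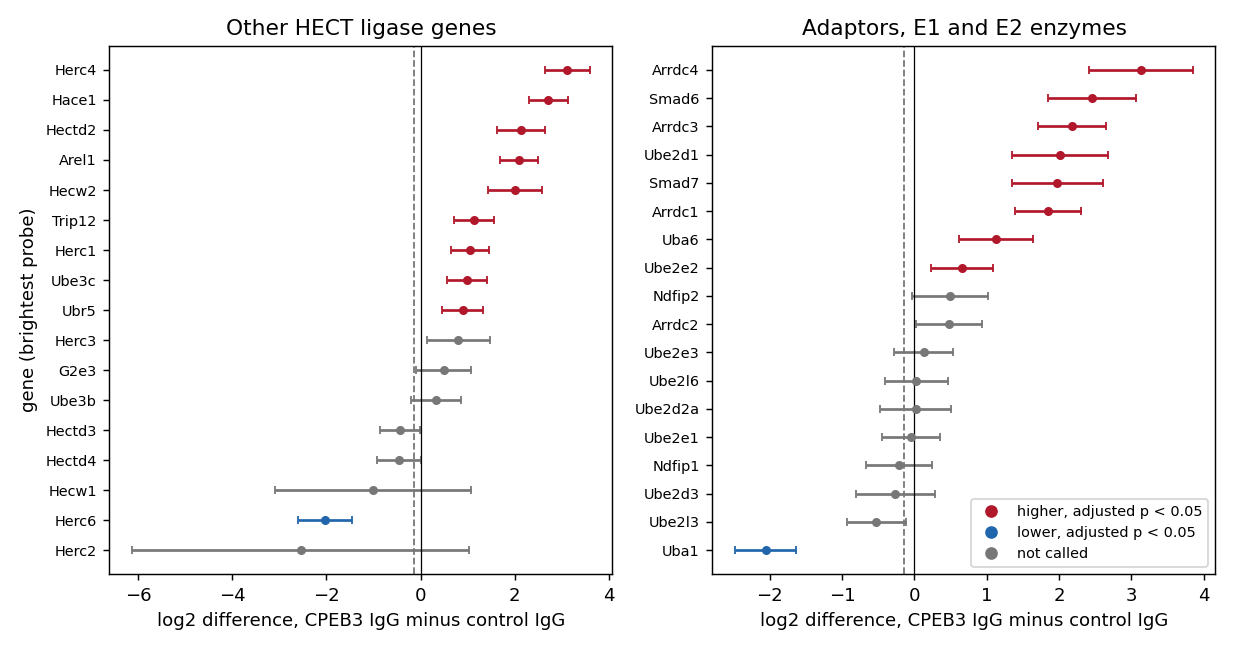
Log2 difference, CPEB3 IgG minus control IgG, at the brightest probe of other HECT ligase genes (left, with 1 gene not drawn) and of 18 adaptor, E1 and E2 genes (right), with 95% intervals, red for called higher, blue for called lower and grey for neither. The dashed line marks the median of all genes at −0.14, Herc4 (3.11) and Arrdc4 (3.13) lead, and Herc6 (−2.04, a fitted value with both CPEB3 IgG arrays near background) and Uba1 (−2.06) are the genes called lower.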

How the data were processed

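The files hold 1-colour spot intensities made by the authors with Agilent Feature Extraction 10.5.1.1, with coordinates on mm9, per the file headers. The deposited processed intensity is background-subtracted and detrended within the array, with substitute values near background, and is not scaled between arrays. Raw mean and background intensities, also deposited, were used in 1 alternative. Per the labels, 0.2 ug of RNA was amplified for each array and carries Cy3.

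Control and outlier-flagged spots were left out, spots of a probe were averaged as log2 intensity, and each array's 75th percentile was subtracted. The fit took the 40616 probes called well above background on 2 or more arrays, with 63 left out for a missing value. limma 3.58.1 in R 4.3.3 (lmFit, eBayes, no block) compared the groups of 2, with Benjamini-Hochberg adjustment. Genes are their brightest probe, named through RefSeq symbols of GRCm38.p6. Pairs of probes used within-array differences, for genes with 2 to 6 probes, on the same transcript record or the same chromosome. The fit was tested on simulated data. Intervals use the moderated degrees of freedom.

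Members, lists, the rule for named genes (all members, and per list the 4 most positive and 3 most negative called genes and the one nearest 0) and tests were chosen with earlier results of these data known; the comparison of paralogs was added after seeing the data. Whether the replicates are separate animals or lysates is not in the labels, so the p-values reflect the spread of these 4 samples alone, and it may be technical. Alternatives were normexp (offset 50), other scalings, other filters, an intensity trend, a replicate block, stricter thresholds and leaving out each array. The number of arrays limits the precision, and exon or UTR annotation was not used here. Values of 1 listed gene are not reported here.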

Additional observations from a re-analysis of the deposited data

How the results depend on the processing

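Limits: with 2 arrays per group, leaving out 1 array leaves a lone sample that is assumed to vary like the other group. Without scaling and with spike-in scaling, the adjusted p of the listed genes followed the size of the difference, whatever their replicate spread. The calls of Huwe1, Itch, the later Nedd4l probe and the last Smurf2 probe held under all 14 alternative settings of scaling, background, filter, trend, block and left-out array, and none of the other probes was called in the opposite direction. Huwe1 and Itch have 1 probe each, and none of these settings addresses the larger differences at later probes seen across the array. Whether probe position adds to the differences of Huwe1 and Itch was not tested. No slide or scan block could be fitted. The replicate numbers are shared by the groups, but the labels do not say that a number marks a shared lysate. The deviations of replicate 1 from the group means correlated at 0.356 between the groups. With the replicate number as a replicate block, 6867 probes were higher and 8981 lower, 6 ligase probes were higher and 1 lower, and 2 other HECT ligases were lower instead of 1, with Herc2 added (−2.55, adjusted p = 0.0279).

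Counts over all probes, 6423 higher and 7688 lower, moved to 4316 lower with median scaling, 1096 lower with spike-in scaling, 3937 higher without scaling, 4702 lower without the filter, and 2735 and 2015 at adjusted p 0.01. Higher probes made up 45.5% of the calls, 66.2% with median scaling and 85.1% with spike-in scaling, which moved the median of all probes by 0.29 and 0.65, and moved every ligase probe by the same amount. Leaving out 1 array gave 2347 to 4682 higher and 2077 to 5375 lower. The number of ligase probes called lower, 1, fell to 0 with spike-in scaling and at adjusted p 0.01 and ran from 0 to 1 with an array left out, and that of ligase genes fell to 0 with spike-in scaling. The 1 called pair of ligase probes, that of Nedd4l, became 0 without the filter, at adjusted p 0.01 and with the 2-fold threshold. With an array left out the Nedd4l pair was never called, at 0.82 to 1.08. Of all pairs, 2355 larger and 410 smaller at the later probe, 385 and 40 passed at adjusted p 0.01, and 0 to 1358 and 0 to 251 with an array left out. Other HECT ligases called higher, 9, became 5 without scaling and ran from 5 to 9 with an array left out, and those called lower, 1, became 0 with normexp or the filter on all 4 arrays, 2 with quantile or no scaling, and 1 to 3 with an array left out. Adaptors, E1 and E2 called lower, 1, became 2 with normexp, cyclic loess, the filter on all 4 arrays or the trend, and 0 with spike-in scaling. Apart from fewer samples or a stricter threshold, the cause was not tested.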
